A study of Mus musculus with 12 samples.

Results

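The DEAD and DEAH box RNA helicases were taken as every gene whose symbol in the mRNA peak lists started with Ddx or Dhx followed by a digit. The rule found 46 of the 10030 genes named in the 6 lists, with 576 peaks in 151 merged regions. All samples were C17.2, a line of mouse neural stem cells (NSCs) that was made immortal, and were labelled as wild type. The control group was compared with a hypoxia/reoxygenation (H/R) group, whose NSCs were held under 5% oxygen for 12 h and returned to standard oxygen for 48 h, as a culture model of ischemia and reperfusion. N6-methyladenosine (m6A) was mapped by methylated RNA immunoprecipitation sequencing (MeRIP-seq), which sequences RNA fragments bound by an m6A antibody beside unselected input RNA. The 12 samples were 3 immunoprecipitates and 3 inputs of each group, and they gave 3 control and 3 H/R peak lists, named A, B and C, each an immunoprecipitate set against an input. Below, the values of 3 lists stand in the order A, B, C. No label said that the replicates were separate cultures, so a p-value here covers no more than the spread of these samples, and that spread may be technical.

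DEAD and DEAH box proteins use ATP to bind, unwind or remodel RNA and RNA-protein complexes. Members work at nearly every step in the life of an RNA, from splicing and ribosome assembly to nuclear export, translation, decay and the sensing of viral RNA. m6A is a methyl mark on adenosines of messenger RNA that sit in the consensus DRACH, in which the letter D can be A, G or T, the letter R a purine and the letter H any base but G. It is written mainly by the METTL3-METTL14 complex and read by proteins that alter the splicing, translation or decay of the marked RNA.

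The mRNA lists differed in length, with 7863 to 12180 peaks in the control group and 13954 to 22038 in the H/R group. The lists hold no RNA levels. The paper also reported RNA sequencing of both groups and a joint analysis of m6A and expression, which were not used here. From the lists alone, more methylation per transcript and more RNA of a gene could not be told apart. Neither could be told from a deeper or cleaner library. No helicase peak had a false discovery rate of 5% or less, the lowest being 24.98%. Few peaks of any gene did: 7, 0 and 2 of all mRNA peaks in the control lists and 0, 0 and 6 in the H/R lists. Of 9 markers of neural stem cells, 5 had a peak, with Nes, Sox2 and Notch1 in all 6 lists and none on Vim, Prom1, Fabp7 and Pax6. Of 19 markers of neurons, astrocytes, oligodendrocytes, microglia and endothelium, 3 had a peak, namely Map2 in 5 lists, Gfap in 2 and P2ry12 in 1. A missing peak does not show that a transcript was absent.

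Peaks in helicase genes were mostly whole exons. In the deposited lists a peak is trimmed to exons, and 68.4% to 80.2% of the helicase peaks of a list ended exactly at both borders of an exon, against 62.3% to 75.4% of all mRNA peaks. The number of peaks of a gene was therefore close to the number of its exons that were called. The exons below, all fully coding, are printed to show the RNA behind the results that follow. The first 5 were called in all 6 lists, and the last was called in the H/R lists alone. They are given 5′ to 3′ on the transcript strand of mm10, with the DRACH sites in capitals, and the fold is the deposited enrichment of immunoprecipitate over background. These exons were chosen after their values were seen.
Ddx46 exon 4, chr13:55645371-55645467, fold 20.97 to 112: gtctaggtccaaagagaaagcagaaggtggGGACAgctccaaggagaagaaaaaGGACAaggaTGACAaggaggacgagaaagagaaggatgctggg
Ddx46 exon 5, chr13:55647627-55647792, fold 85.1 to 318: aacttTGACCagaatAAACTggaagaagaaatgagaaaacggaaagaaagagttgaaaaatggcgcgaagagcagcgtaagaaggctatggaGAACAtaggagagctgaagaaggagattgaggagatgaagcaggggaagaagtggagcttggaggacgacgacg
Ddx46 exon 6, chr13:55650415-55650566, fold 64.4 to 150.4: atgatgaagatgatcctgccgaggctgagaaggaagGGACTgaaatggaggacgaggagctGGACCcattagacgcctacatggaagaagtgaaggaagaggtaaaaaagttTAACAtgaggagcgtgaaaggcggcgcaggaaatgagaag
Ddx27 exon 15, chr2:167031335-167031441, fold 39.4 to 178: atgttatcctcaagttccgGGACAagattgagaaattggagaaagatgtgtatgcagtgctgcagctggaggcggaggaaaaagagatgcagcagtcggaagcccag
Ddx10 exon 17, chr9:53117153-53117289, fold 16.1 to 83.6: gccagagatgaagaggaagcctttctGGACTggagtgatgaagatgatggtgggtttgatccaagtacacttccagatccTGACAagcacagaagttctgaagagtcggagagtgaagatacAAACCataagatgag
Ddx11 exon 7, chr17:66134085-66134192, fold 6.34 to 13.8: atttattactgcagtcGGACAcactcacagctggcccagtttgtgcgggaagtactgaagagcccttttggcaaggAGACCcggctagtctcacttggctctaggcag

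The printed exons held 15 DRACH sites in 767 bases. In Ddx46 exon 4 and in Ddx46 exon 6, 2 of the 3 DRACH sites also matched GGAC, the core of the strongest form of the consensus. Ddx46 exon 5, the exon with the highest fold enrichment of the family, held 3 DRACH sites, none of them a GGAC. Its length class gives the comparison: of the 2352 mRNA regions within 10% of its length, 95.3% held at least 1 DRACH site and 64.0% held at least 3. The 5 exons called in all lists were rich in purines, A and G making up 79.4% of Ddx46 exon 4 and 63.5% of Ddx10 exon 17. The H/R-only Ddx11 exon 7 had 50% purines. Over the 34 coding helicase regions called in all 6 lists, the median purine share was 60.9% (interquartile range 54.6% to 67.2%), beside 55.5% (51.2% to 62.9%) over 3342 such regions of all genes. These motif matches and shares are descriptions and mark no proven methylation site.

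The first question was which helicase transcripts carried m6A peaks at all. Of the 46 genes, 30 (65.2%) were called in all 6 lists, where 39.5% of all genes were. The genome annotation held 54 coding symbols that fit the rule, Ddx39 and its synonym Ddx39a both included. Of these, 8 had no peak in any mRNA list, namely Ddx5 and Ddx17, paralogous splicing and transcription cofactors, Dhx35, the interferon-induced Ddx60, the Y-linked Ddx3y, and Ddx4, Ddx25 and Ddx43, which are known from the germ line. A peak needs enough reads of the transcript, so their absence from the lists does not separate missing m6A from low RNA. At the other end, Ddx39b, Ddx49 and Ddx51 were called in 1 list each, all of them H/R lists, which were the longer ones. The share of all genes called in 1 list was not taken, so these calls are not read as particular to helicases. The symbol Ddx26b is an older name of Ints6l, an Integrator-like gene that carries the family name, and it was called in H/R A and H/R C.

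The number of helicase genes with a peak was 39, 32 and 33 in the control lists against 45, 36 and 43 in the H/R lists. The means were 34.7 ± 3.79 and 41.3 ± 4.73 (SD, n = 3 each), and the groups overlapped, since H/R B lay below control A. Their peaks numbered 90, 74 and 75 in the control lists and 117, 96 and 124 in the H/R lists, and every H/R list lay above every control list. The helicase peaks did not keep pace with the length of the lists. These peaks made up 0.739%, 0.828% and 0.954% of all mRNA peaks in the control lists, against 0.625%, 0.688% and 0.563% in the H/R lists, so every H/R share lay below every control share. Both separations were lost among peaks with a fold of at least 10, where the means were 79.3 and 81.3 peaks (exact permutation p = 1) and 0.850% and 0.792% of all mRNA peaks (exact p = 0.6). Without this cutoff the mean numbers of peaks were 79.7 and 112.3. The cutoff thus removed almost no control peaks and acted nearly on the H/R lists alone, so it is no even check of the 2 groups. Over the 30 genes called in all 6 lists, 2.63, 2.37 and 2.40 peaks were called per gene in the control lists, against 3.17, 2.90 and 3.37 in the H/R lists. Over all 3966 genes called in all 6 lists the same values were 2.31, 1.91 and 1.78, and 3.1, 2.60 and 3.41. A two-sided exact permutation test of 3 lists against 3 cannot give a p below 0.1, so no difference here could pass 0.05. The exact p was 0.2 for the number of genes and 0.1 for the other 3 measures, or 0.244 and 0.138 after Benjamini-Hochberg adjustment over the 11 measures tested.

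**Figure D1:**
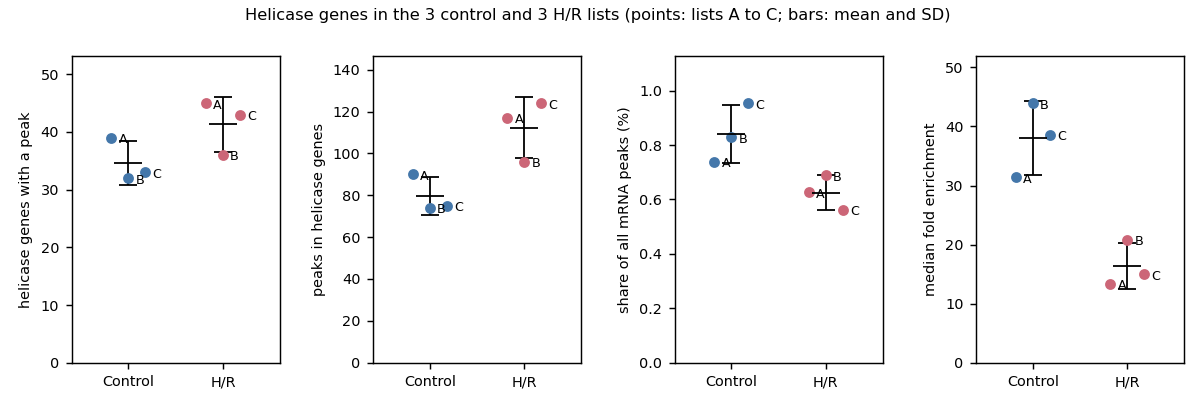
Number of helicase genes with a peak, number of their peaks, their share of all mRNA peaks (%) and their median fold enrichment (vertical axes, each from 0) in the control and H/R groups. Points are lists A to C, and bars are the mean and SD of 3 lists. Peaks ran from 74 to 90 in the control lists and from 96 to 124 in the H/R lists, while the median fold ran from 31.4 to 44.0 and from 13.3 to 20.9.

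When each list was shortened to its 7863 peaks with the highest p score, the length of the shortest list, the order of the groups was lost or turned. Helicase genes then numbered 33, 32 and 33 in the control lists and 32, 31 and 30 in the H/R lists, and helicase peaks 68, 66 and 75 against 65, 70 and 62. The exact permutation p was 0.2 for genes and 0.4 for peaks and for their share of all mRNA peaks. Of the 46 genes, 11 had no peak left, Ddx39, Ddx3x, Dhx9 and Dhx30 among them, and 28 of the other 35 were still called in all 6 lists.

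Gene by gene, 5 of the 46 helicases (10.9%) had more peaks in every H/R list than in every control list, where 14.8% of all genes did. They were Ddx46, Ddx24, Dhx29, Ddx11 and Ddx39. Among peaks with a p score of at least 100 there were 7, without Ddx46 and with Ddx31, Dhx37 and Dhx57, and among peaks with a fold of at least 10 there was only Ddx39. No helicase had more peaks in every control list, which 0.12% of all genes did. The count of 7 genes was the same in all 6 lists, and in 34 genes the groups overlapped. Ddx39, a factor of mRNA export, was the only helicase that every H/R list called and no control list did (1 of 46, or 2.17%, beside 4.96% of all genes). No helicase was called by every control list and by no H/R list, which was true of 0.0698% of all genes. No single Ddx39 region was called in all 3 H/R lists. H/R A had a peak of fold 10.2 at the start of the transcript and one of 5.69 in the 3′UTR, whereas H/R B and H/R C had a peak of fold 16.6 and 17.4 in the first exon of another transcript model. It shares its sequence in large part with Ddx39b, so reads of the pair may have been split.

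With lists of equal length, no helicase was called in the H/R lists alone or had more peaks in every H/R list, beside 1.13% and 2.51% of the 6444 genes left. None of the 35 helicases left was called in the control lists alone, beside 1.32%. In 2 of the 35, the control lists then lay above the H/R lists, beside 2.22% of all genes. They were Ddx10, with 7 peaks per control list against 5, 6 and 4, and Dhx36, with 2 per control list against 1 per H/R list.

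**Figure D2:**
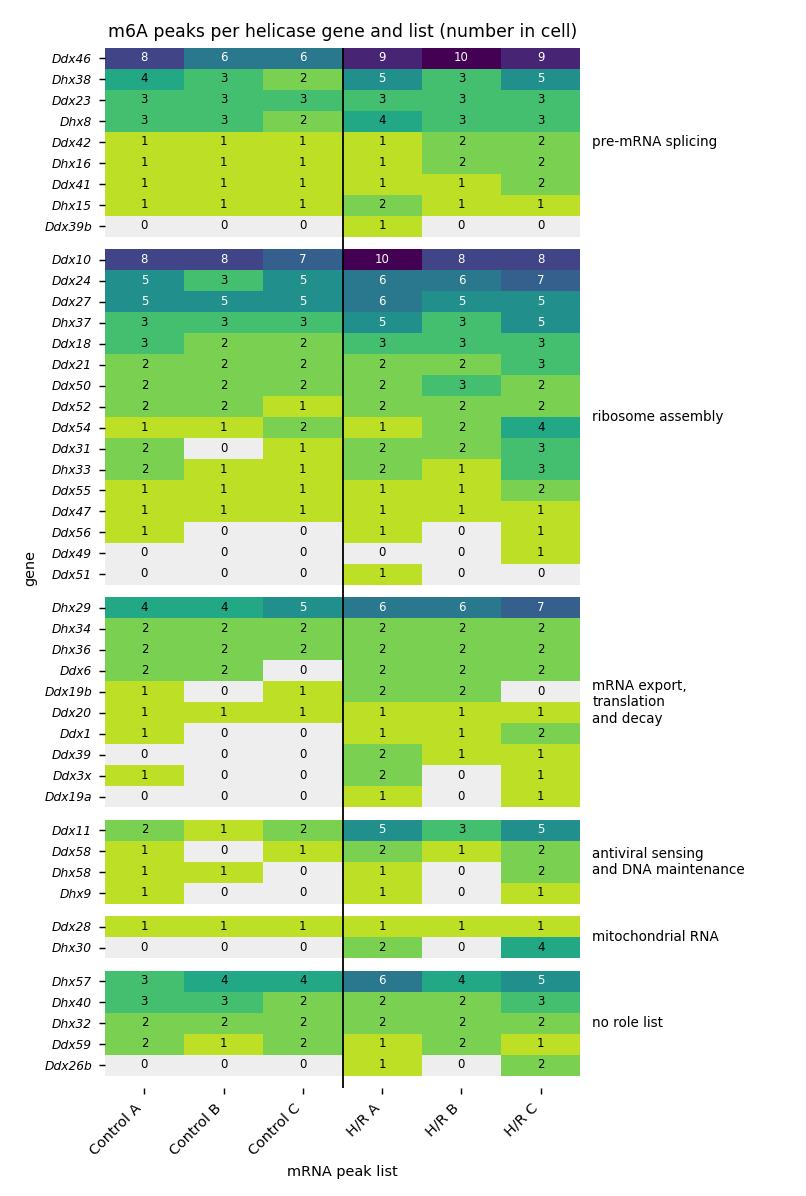
Number of m6A peaks of each of the 46 helicase genes (rows, grouped by role) in the 3 control and 3 H/R lists (columns). Darker cells hold more peaks and grey cells none. Ddx46 and Ddx10 reach 10 peaks in a list, and Ddx39, Dhx30, Ddx19a and Ddx26b have none in the control lists but peaks in at least 2 H/R lists.

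Helicases of the spliceosome, which strip and rearrange small nuclear RNAs as introns are cut out, had peaks in 9 of 12 listed genes, 8 of them in all 6 lists. Together they held 22, 19 and 17 peaks in the control lists and 27, 25 and 27 in the H/R lists. Counts of genes called in all 6 lists, here and for the roles below, stand beside 39.5% of all genes. Ddx46 helps the U2 particle to bind the branch point. It had 8, 6 and 6 peaks in the control lists against 9, 10 and 9 in the H/R lists, the groups not overlapping. Its exons 2 to 6 of 23, an unbroken run near the 5′ end, were called in all 6 lists, and exons 16, 20, 21 and 22 in H/R lists alone. The fold of exon 5, printed above, was 249, 182 and 318 in the control lists and 155, 251 and 85.1 in the H/R lists, which overlapped. Those late exons had folds of 3.33 to 7.16.

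Ddx23, which opens the pairing of U1 with the 5′ splice site, had 3 peaks in every list. One was a 1074-base region over exons 5 to 7, with folds of 72.1, 114 and 99.3 in the control lists and 53.3, 63.6 and 62.7 in the H/R lists, without overlap. Dhx38, which acts before the second step of splicing, had 4, 3 and 2 peaks in the control and 5, 3 and 5 in the H/R lists. Its last exon, exon 27, showed the largest ratio of control to H/R fold of all helicase regions called in all 6 lists, at 79.2, 64.3 and 51.5 against 12.9, 16.6 and 11.9, with every control list above every H/R list. Dhx8, which releases the spliced mRNA, had 3, 3 and 2 peaks against 4, 3 and 3. Dhx16, which activates the spliceosome, and Ddx41 were called in all 6 lists without any region being so. The peak on Dhx16 exon 1, with folds of 17.8, 16.7 and 16.6, was called in the H/R lists alone, whereas exon 2 was called in control A and control B alone, with folds of 13.8 and 44.7. On Ddx41, exon 1 was called in control A and control B and exon 3 in control C and all H/R lists. Ddx42, which works beside the U2 particle, and Dhx15, which takes the spent spliceosome apart, had 1 or 2 peaks in every list. The last exon of Ddx42 had folds of 68.8, 66.7 and 51 against 24.2, 30.4 and 32.4, without overlap.

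All 16 listed helicases of ribosome assembly, most of them nucleolar proteins that remodel ribosomal RNA precursors, had a peak, and 12 were called in all 6 lists. Together they held 38, 31 and 33 peaks in the control lists and 45, 39 and 50 in the H/R lists. Ddx10, a factor of the small subunit, had the most peaks of the family over the 6 lists, with 8, 8 and 7 in the control and 10, 8 and 8 in the H/R lists. Its exon 1 and its exons 13 to 18 of 18 were called in all 6 lists, so that the run lay at the 3′ end, opposite to that of Ddx46. The fold of exon 13 was 107, 151 and 126 in the control and 60.4, 117 and 75.8 in the H/R lists, which overlapped. That of exon 17, printed above, was 72.5, 70.7 and 83.6 against 16.1, 35.5 and 16.1, without overlap. Exon 1 went the other way on average, with 21.8, 15.7 and 40.2 against 21.7, 13.8 and 56.4, but the groups overlapped and H/R A and H/R B lay below control C.

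Ddx24 had 5, 3 and 5 peaks in the control lists and 6, 6 and 7 in the H/R lists. Exons 1 to 3 of 9 were called in all 6 lists, with folds of 31.1 to 109. Exon 5, 516 coding bases, was called in the H/R lists alone, with folds of 7.39, 12.98 and 12.8. Ddx27, which acts on the large subunit, had 5 peaks in 5 of the 6 lists and 6 in H/R A. The 5 peaks common to all lists fell in 3 places, exons 1 and 2, exons 5 and 6 under a single peak, and exons 14 and 15. On exon 15, the folds were 132, 178 and 109.9 in the control and 39.4, 74.1 and 78.5 in the H/R lists, without overlap. Dhx37, which frees the U3 RNA from the small subunit precursor, had 3 peaks in each control list and 5, 3 and 5 in the H/R lists. Ddx18 had 3, 2 and 2 against 3 in each H/R list. The paralogs Ddx21 and Ddx50, which lie on chromosome 10 and could share reads, both had their highest fold at the start codon in exon 1, with 154.5, 199.5 and 187 against 90.3, 153 and 97 for Ddx21 and 68.2, 81.1 and 93.7 against 37.5, 55.4 and 42.6 for Ddx50. At both genes every control list lay above every H/R list. Of the remaining members of this group, Ddx47 had 1 peak in every list, Ddx52, Ddx55, Ddx54 and Dhx33 had 1 to 4 in every list, Ddx31 was missing from control B alone, and Ddx56 was called in control A, H/R A and H/R C.

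**Figure D3:**
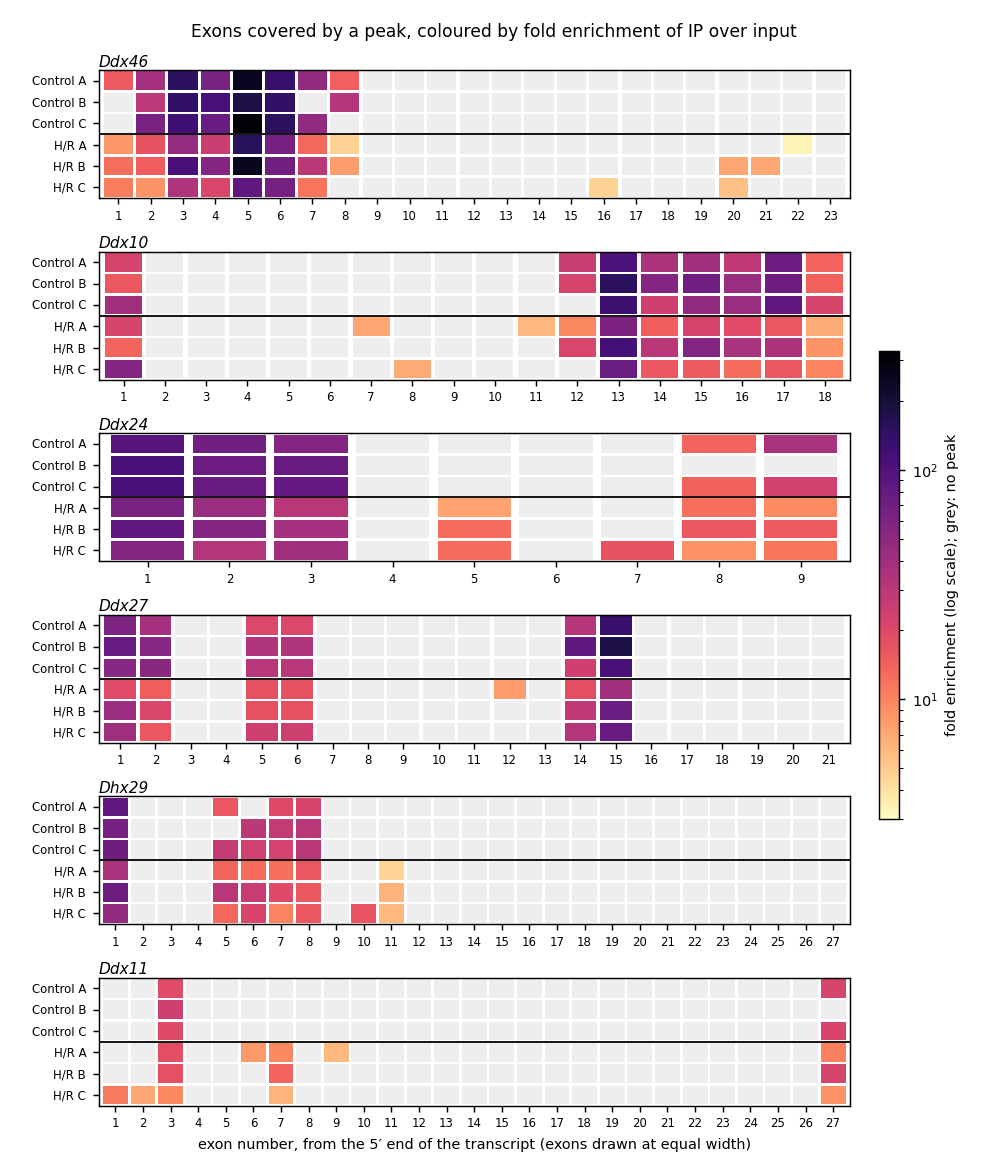
Exons covered by a peak in 6 helicase genes. Columns are exon numbers from the 5′ end, drawn at equal width, rows are the 3 control and 3 H/R lists, and colour is the fold enrichment on a log scale, with grey for no peak. The run of called exons lies at the 5′ end of Ddx46 and Ddx24 and at the 3′ end of Ddx10, and the exons called in H/R lists alone have folds of 3.33 to 17.1, paler than most exons of the runs.

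Of 11 listed helicases of mRNA export, translation and decay, 10 had a peak and 4 were called in all 6 lists. Of all genes with a peak, 39.5% were called in all 6 lists. The peaks of these listed helicases numbered 14, 11 and 11 in the control and 21, 17 and 19 in the H/R lists. Dhx29, which helps the small ribosomal subunit to scan structured 5′UTRs, had 4, 4 and 5 peaks in the control and 6, 6 and 7 in the H/R lists. Its exon 1 and exons 7 and 8 of 27 were called in all 6 lists. Exon 11, 612 coding bases, was called in the H/R lists alone, at the low folds of 4.64, 6.33 and 5.95. Dhx36, which unwinds G-quadruplexes, had 2 peaks in every list, exon 1 with 65.4, 104 and 127 against 58.6, 69.0 and 47.5, and exon 2 with 15.9, 21.95 and 20.2 against 8.91, 8.68 and 5.07. In exon 2 the groups did not overlap. Dhx34, a factor of nonsense-mediated decay, also had 2 peaks in every list, and the folds of its exon 2 overlapped between the groups, with 23.3, 27 and 20.2 against 25, 24.8 and 24.5.

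Ddx6, a repressor of translation that helps to decap mRNA, had 2 peaks in every list except control C, where it had none. Ddx20 was counted in this role, though it is a part of the complex that loads small nuclear RNAs with Sm proteins. It had 1 peak in its last exon in every list. Ddx3x, a broad factor of translation initiation, was called in control A, H/R A and H/R C alone, at folds of 3.16 to 6.06. Ddx19a and Ddx19b, neighbouring paralogs that remodel mRNA at the nuclear pore and could share reads, were called in 2 and 4 lists. For Ddx1, 1 peak was called in control A and 1, 1 and 2 in the H/R lists.

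Of 5 helicases listed for antiviral sensing and DNA maintenance, 4 had a peak and 1 was called in all 6 lists. That was Ddx11, a DNA helicase needed for sister chromatid cohesion, with 2, 1 and 2 peaks in the control and 5, 3 and 5 in the H/R lists. Exon 3 was called in all 6 lists and exon 27 in all but control B. Exon 7, printed above, was called in the H/R lists alone, with folds of 9.64, 13.8 and 6.34, and exons 1, 2, 6 and 9 in 1 H/R list each. Ddx58, which encodes the viral RNA sensor RIG-I, had 1, 0 and 1 peaks against 2, 1 and 2, and its relative Dhx58 1, 1 and 0 against 1, 0 and 2. Dhx9 was called in its last exon in control A, H/R A and H/R C. Of the mitochondrial pair, Ddx28 was 1 peak in every list, its only exon, with folds of 49.2, 42.7 and 51.1 against 16.9, 13.97 and 16.7. Dhx30 had no peak in any control list and 2, 0 and 4 in the H/R lists. Among genes in no role list, Dhx57 had 3, 4 and 4 peaks against 6, 4 and 5. Dhx32 had 2 in every list. Dhx40, with 3, 3 and 2 against 2, 2 and 3, and Ddx59, with 2, 1 and 2 against 1, 2 and 1, were the only helicases with fewer peaks on average in the H/R lists, and in both the groups overlapped.

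Other RNA helicases, whose symbols start differently, were listed for comparison. Peaks were found on 14 of 21, in 30, 24 and 19 peaks in the control lists and 43, 33 and 40 in the H/R lists. None was called on Eif4a1, Eif4a2 and Eif4a3, DEAD box proteins of translation initiation and of the exon junction complex. Of these 14, 3 had more peaks in every H/R list than in every control list, beside 14.8% of all genes. They were Dicer1, Helz and Znfx1. Dicer1, which cuts microRNA precursors, had 4, 4 and 3 against 8, 5 and 8, and Znfx1 6, 4 and 5 against 10, 7 and 8. Snrnp200, which unwinds U4 from U6, had 3, 2 and 2 against 3, 4 and 3, which overlapped. Ythdc2, a helicase that binds m6A and was named after its values were seen, had 1 peak, in H/R C.

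The second question was how strong the helicase peaks were. The median fold enrichment of helicase peaks was 31.4, 44.0 and 38.6 in the control lists against 13.3, 20.9 and 15 in the H/R lists. All mRNA peaks had lower medians in every list, 21.8 to 33.9 and 9.34 to 15.5. To leave out the added weak peaks, the 57 helicase regions called in all 6 lists (37.7% of 151, where 22% of all regions were) were compared by themselves. Their median fold was 42.9, 61.6 and 51.1 in the control lists and 22.1, 34.4 and 24.6 in the H/R lists, with no overlap. The choice of regions may not bear on the groups alike. Folds in these regions went down to 5.07 in an H/R list (Dhx36 exon 2) but only to 11.2 in a control list (Dhx8 exon 8). What this does to the medians was not tested. The exact permutation p was 0.1 for both medians, the smallest possible. In 32 of the 57 regions (56.1%) every control list had a higher fold than every H/R list, where 54.3% of all such regions did. No helicase region was higher in every H/R list, which 0.168% of all such regions were. The mean of the control lists was 1.71 times that of the H/R lists in the median helicase region (interquartile range 1.52 to 2.12) and also 1.71 times (1.44 to 2.02) in the median of the 5950 regions of all genes. The ratio ranged from 0.847 at Ddx10 exon 1 to 4.71 at Dhx38 exon 27. It lay above 1 in 55 of 57 helicase regions, beside 96.6% of all such regions.

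**Figure D4:**
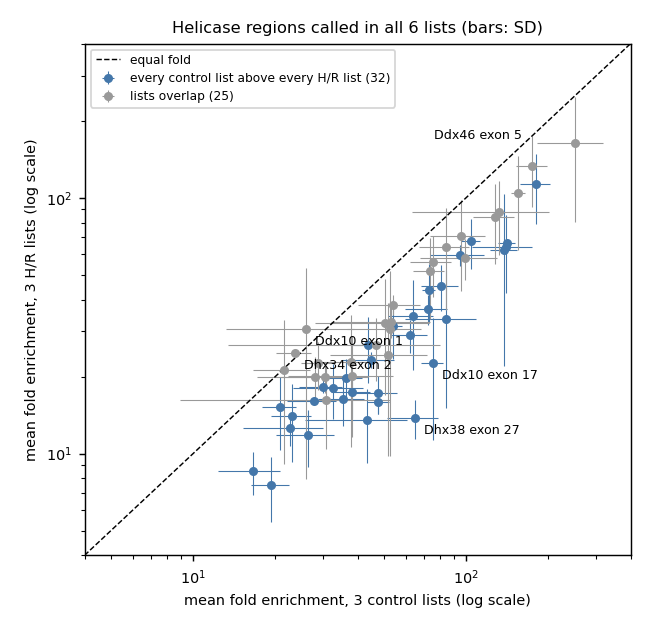
Mean fold enrichment in the 3 control lists (horizontal) and 3 H/R lists (vertical), both on log axes, for the 57 helicase regions called in all 6 lists. Bars are SDs, blue marks the 32 regions in which every control list lay above every H/R list, grey the 25 in which lists overlapped, and the dashed line equal fold. Nearly all points lie below the line, Dhx38 exon 27 farthest, while Ddx10 exon 1 and Dhx34 exon 2 lie on the other side.

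Of the 10 strongest regions, ranked by their lowest p score over the 6 lists and then by their lowest fold, 9 were Dhx32 exon 2, Ddx21 exon 1, Ddx46 exon 5, Ddx23 exons 5 to 7, Ddx50 exon 1, Ddx24 exon 2, Ddx21 exon 2, Dhx38 exon 2 and Ddx46 exon 6. These 9 lay in the first 7 exons of their genes. Of the 10, 8 had the score 3100 in every list, a value that 8 to 26 helicase peaks of a list shared, so the score could not order them. At most 1 helicase peak of a list had a higher score. Dhx32 exon 2 (chr7:133759400-133759913), which spans the start codon, had folds of 149, 182 and 193 in the control lists and 99.96, 179 and 119.7 in the H/R lists, which overlapped. Ddx46 exon 6, printed above, had 129.9, 142 and 150.4 against 65.1, 69.3 and 64.4, without overlap.

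Of the 151 helicase regions, 57 (37.7%) were called in all 6 lists, beside 22% of all regions. Another 39 were called in 1 list, a count for which no share over all regions was taken. In 4 regions (2.65%) every H/R list had a peak and no control list did, beside 6.21% of all regions. They were Ddx24 exon 5, Dhx16 exon 1, Ddx11 exon 7 and Dhx29 exon 11, each in a gene that had other peaks in all 3 control lists. Their folds ran from 4.64 to 17.8. The opposite, a peak in every control list and in no H/R list, was seen in no helicase region and in 0.0628% of all regions. With lists of equal length, 2 of the 93 helicase regions left (2.15%) were called in the control lists alone, beside 1.28% of the 12234 regions of all genes. They were Dhx36 exon 2 and Ddx10 exon 18. None was called in the H/R lists alone, beside 1.41%.

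The third question was where on the transcripts the peaks lay. Coding sequence held 52.2%, 56.8% and 57.3% of helicase peak centres in the control lists against 56.4%, 56.3% and 56.6% in the H/R lists, which overlapped (exact permutation p = 1). The 3′UTR held 18.9%, 16.2% and 18.7% in the control lists and 15.4%, 15.6% and 13.1% in the H/R lists, without overlap (exact permutation p = 0.1). The difference of -3.22 percentage points became -0.92 among peaks scoring 100 or more (exact p = 0.7) and -1.12 when each base was counted in place of the peak centre (exact p = 0.9). All mRNA peaks gave 20.3% to 23.5% and 15.96% to 18.6%. The window of 100 bases on either side of the start codon held 16% to 20.3% of helicase peak centres in the control lists and 18.03% to 18.8% in the H/R lists, above the 9.88% to 12.9% of all mRNA peaks in each list. For the start codon window and the 5′UTR together, the exact permutation p between groups was 0.6. Last exons held 20.3% to 27.8% of helicase peaks, against 26.8% to 37.0% of all mRNA peaks. Whether exon number or transcript length moves with these shares was not tested.

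**Figure D5:**
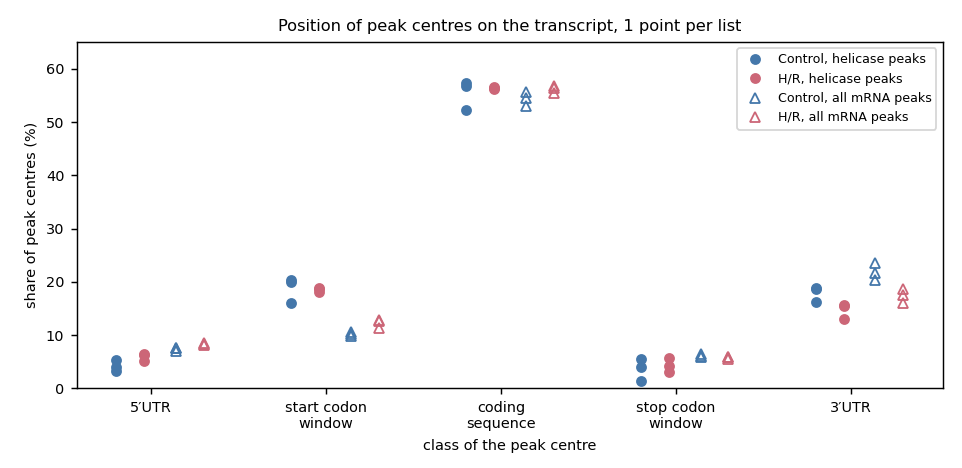
Share of peak centres (%, vertical) in each class of transcript position, with 1 point per list, filled circles for helicase peaks and open triangles for all mRNA peaks, blue for control and red for H/R. Helicase peaks lie above all mRNA peaks in the start codon window in every list, and below them in the 5′UTR.

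Helicase peaks were short. Their median length was 251, 244.5 and 255 bases in the control lists and 227, 235.5 and 228 in the H/R lists, where all mRNA peaks had 501.5 to 577 and 246 to 353. DRACH sites numbered 22.4, 21.9 and 22.1 per kb of helicase peak in the control lists and 21.6, 21.7 and 21.03 in the H/R lists, with no overlap but a difference of -0.66 sites per kb. All mRNA peaks held 20.3 to 20.8 per kb. On the opposite strand, helicase peaks held 15.9 to 17.1 per kb. The exact permutation p was 0.1 for length and for DRACH density, and 0.138 after adjustment over the 11 measures. With lists of equal length both differences turned, to 4.5 bases and 0.11 sites per kb. Among peaks scoring 100 or more they were -5.17 bases (exact p = 0.6) and -0.26 sites per kb (exact p = 0.7).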

How the data were processed

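MeRIP-seq of control and H/R C17.2 NSCs was analysed from 18 deposited peak lists, of which the 6 mRNA lists were the main data. The authors trimmed reads with cutadapt (version 1.9.3), aligned them with HISAT2 (version 2.0.4) to mm10 and called peaks in each library with MACS (version not given in the sources used here). A program of their own kept the parts on exons. Replicates were not pooled. The deposited score is 10 times the −log10 of the p-value, the deposited fold enrichment is a ratio of immunoprecipitate to background, and the deposited false discovery rate is a percent. These are the authors' values per peak. Read numbers were not used, so no interval that needs depth was given, and deeper libraries may yield more peaks.

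Groups came from the labels. List letters were not tied to replicate numbers. A gene was called where its symbol had a peak. Peaks overlapping by at least 1 bp were merged over the lists. Exons and classes came from RefSeq and GENCODE vM21 models of the same build, sequences from its genome. Values per list were compared by two-sided exact permutation tests (scipy 1.17.1). The counting was tested on simulated data. Genes were named by a rule: those separating the groups, the 10 with most peaks, the 10 top regions, up to 4 more per role list, and family members without a peak. Further members are named to account for all 46. Members, roles and other lists were chosen with earlier results of these data known. Alternatives were lists of equal length, a fold of at least 10, a score of at least 100, each list left out, merging by an overlap of at least 50% of the shorter peak, each base counted, and calls by position. Of the 10 top regions, 1 is not reported here.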

Additional observations from a re-analysis of the deposited data

Results flagged for a closer look

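The lncRNA and circRNA lists, which the comparisons above do not use, held peaks listed with a helicase as host or neighbouring gene. There were more of them in every H/R list than in every control list. In both kinds of list that order rested on peaks outside the helicase genes themselves, as given below. In the circRNA lists, peaks with a helicase host gene numbered 6, 5 and 4 in the control lists against 8, 7 and 8 in the H/R lists, a mean of 5 ± 1 against 7.67 ± 0.577 (SD of 3 lists, exact permutation test, two-sided, p = 0.1, the smallest it allows). They were listed for Dhx40, Ddx24 and Ddx42, and in H/R A also for Dhx32, and most lay on a peak of the mRNA list of the same library, so they are not independent of it. Some peaks listed for Dhx40 lay outside its transcript model (chr11:86768849-86807660). Among them was a peak that began at 86757248 in every H/R list and in no control list. Without the peaks outside the model, not every H/R list lay above every control list. In the lncRNA lists, peaks numbered 10, 7 and 6 in the control lists and 13, 12 and 11 in the H/R lists, a mean of 7.67 ± 2.08 against 12 ± 1 (SD of 3 lists, exact permutation p of 0.1). They lay on transcripts listed as noncoding at Ddx23, Ddx27, Ddx47, Ddx58, Dhx8 and, in H/R A, Dhx32. These were all labelled exon sense-overlapping, so they share exon sequence and strand with the coding gene. Whether the peaks came from noncoding or coding RNA was not tested. Others lay on 9230114K14Rik, a noncoding RNA transcribed away from Dhx15 and outside its transcript model. Without the peaks of this RNA, not every H/R list held more peaks than every control list. None of these lncRNA peaks overlapped a peak of the mRNA list of the same library. Both kinds of list were longer in the H/R group as a whole. Peaks of any host gene in the circRNA lists numbered 1076, 809 and 705 for control against 1625, 1329 and 1947 for H/R. All peaks listed with a helicase host gene made up 0.558%, 0.618% and 0.567% of these against 0.492%, 0.527% and 0.411%, so the shares were lower in every H/R list (exact permutation p = 0.1). The lncRNA lists held 1594, 1115 and 1047 peaks against 2649, 1980 and 3243. The peaks counted above, those of 9230114K14Rik included, made up 0.627%, 0.628% and 0.573% against 0.491%, 0.606% and 0.339%, which overlapped (exact permutation p = 0.2).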

How the results depend on the processing

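Of the 101 comparisons of the 11 differences between groups with an alternative, 93 kept their direction and 8 turned. None could pass 0.05, since the smallest exact permutation p of 3 lists against 3 is 0.1, so keeping a direction says little, and 14 of those 93 with all lists kept moved by over 1.5 times. With lists of equal length, H/R minus control became -1.67 helicase genes (exact permutation p = 0.2), -4 peaks (exact p = 0.4), -0.0714 peaks per gene called in all lists (exact p = 0.5), 4.5 bases of median length (exact p = 0.9) and 0.106 DRACH sites per kb (exact p = 0.6). Counts of H/R-only genes, of genes with more peaks in every H/R list and of H/R-only regions went to 0, while 2 genes had more peaks in every control list and 2 regions were control-only. With these lists the share of all mRNA peaks kept its direction, but the difference shrank from -0.215 to -0.0509 percentage points (exact p = 0.4). At equal length this share is the number of peaks over a constant, so it repeats the -4 peaks and is no separate check. The difference in coding share grew to 2.81 (exact p = 0.4). With a fold of at least 10, which lies below the median of every control list and nearer that of the H/R lists, the difference became -0.0230 peaks per gene (exact permutation p = 1) and -0.634 percentage points of coding share (exact p = 0.9), while it shrank to 2.33 genes (exact p = 0.4), 2 peaks (exact p = 1), -0.0584 percentage points of all mRNA peaks (exact p = 0.6) and -5 bases (exact p = 0.6) and grew to 4.73 percentage points for the start codon and 5′UTR (exact p = 0.1). The counts were 1 gene with more peaks in every H/R list (Ddx39), 1 with more in every control list (Dhx36), 1 H/R-only region and 1 control-only region. This fold cutoff removed almost no control peaks but many H/R peaks, so it did not bear on the groups alike. Leaving out 1 list at a time gave differences of 4.83 to 9.33 genes, 26.8 to 40.8 peaks, 0.567 to 0.800 peaks per gene, -0.266 to -0.158 percentage points of all mRNA peaks, -24.9 to -18.6 in median fold, -28.9 to -19.9 in the fold of shared regions, -22.8 to -17.6 bases and -0.789 to -0.457 DRACH sites per kb. For coding share the range was -0.639 (without control A, exact permutation p = 0.2) to 1.92 percentage points, for the 3′UTR -4.07 to -2.42, and for the start codon and 5′UTR 0.00276 to 2.84. H/R-only genes numbered 1 to 4 (2 without control A, adding Ddx1, and 4 without H/R B, adding Ddx19a, Ddx26b and Dhx30), genes with more peaks in every H/R list 5 to 12 (8 without control A, 12 without H/R B), H/R-only regions 5 to 11 (9 without control A, 7 with H/R A left out and 11 with H/R B left out) and control-only regions 0 to 2 (2 without control C). A list fewer makes these rules easier to meet. The cause of the other changes was not tested. The score of at least 100, the stricter overlap for merging, counting each base and calls by position turned no direction and kept every count within 1.5 times, though not always the same genes. The score of at least 100 shrank the differences to -0.921 percentage points for the 3′UTR (exact permutation p = 0.7), -5.17 bases (exact p = 0.6), -0.258 DRACH sites per kb (exact p = 0.7), 0.319 percentage points of coding share and 0.647 for the start codon and 5′UTR. Counting each base shrank them to -1.12 for the 3′UTR (exact p = 0.9) and 0.635 for coding share. No paired analysis was possible because the columns carry no replicate number, and no source used here says that lists of the same letter in both groups form a pair.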
